A study of Mus musculus with 15 samples.

Results

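Mouse embryonic fibroblasts in which the proneural factor Neurog1 had been induced for 13 days were compared with the same kind of cells after 1 day of induction. The members were the 3 libraries of the Neurog1 day-13 group and the 3 of the Neurog1 day-1 group, labelled a, b and c, 6 of the 15 polyA RNA libraries in the series. The cells carried a lentivirus that expresses Neurog1 (labelled Ngn1) when doxycycline is given, and doxycycline was added on day 0 in both groups. Day-1 cells were still in DMEM with 10% fetal bovine serum. On day 2 this was replaced by a neuronal medium of DMEM/F12 with GlutaMAX and the supplements N2 and B27, so day-13 cells had been without added serum since then, with part of the medium renewed every other day. Time since induction and the change of medium therefore cannot be told apart in this comparison. The other 9 libraries were Neurog3 at day 13, Neurog3 at day 1 (same virus design and media) and a control group. The controls are labelled only as control, with no virus or day given in the sources used here, so they serve as a level for cells without the factor and not as a day-13 control.

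Neurog1 is a basic helix-loop-helix transcription factor. In the embryo it commits progenitors to a neuronal fate, best known in cranial and spinal sensory ganglia. Such factors switch on Notch ligands and a second tier of neuronal transcription factors, such as the NeuroD and Nhlh genes, which act in postmitotic neurons. N2 and B27 supply insulin, transferrin, selenium and progesterone in place of serum, and B27 also holds thyroid hormone, corticosterone, antioxidants and a retinyl ester. Serum, for its part, carries growth factors, lipoproteins and lysophospholipids that keep fibroblasts dividing and their actin fibres under tension.

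The 6 libraries held 16376231 to 17470737 counts at day 13 and 16736544 to 17645853 at day 1. At least 1 read was counted in 22053 ± 816 genes at day 13 and in 20639 ± 118 at day 1 (SD, n = 3). Pearson's r of log2 CPM across genes, which are not independent replicates, was 0.954 to 0.972 among day-13 libraries, 0.974 to 0.978 among day-1 libraries and 0.771 to 0.851 between the days. The day-13 libraries differed among themselves in ways that touch several results below. Library a had the lowest level of Neurog1, the lowest summed levels of the neuronal transcription factor, presynaptic and channel lists, and the highest of the interferon list. Library c had 1.68% of its counts in collagen genes, against 4.68% in library a and 4.46% in library b. The labels do not tell whether a, b and c are separate cultures. The p-values therefore measure spread among libraries, which may be technical in part. In a bulk RNA sample, fewer cells of a type and less RNA per cell cannot be told apart.

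By edgeR's quasi-likelihood test, 5163 of 16872 genes tested were higher at day 13 and 4603 lower, at a Benjamini-Hochberg adjusted p under 0.05. These are 30.6% and 27.3% of the genes tested, so 57.9% were called in one direction or the other. At least 2-fold changes made up 24.3% (4108 genes, higher) and 18.3% (3088 genes, lower). Over the genes tested the log2 fold change had a median of 0.08. Scaling by library totals in place of TMM factors moved that median to 0.37 and the split to 6438 higher and 3411 lower. Higher genes were then 65.4% of the calls, against 52.9% with TMM. In the text, a level is CPM on TMM-scaled library sizes, given for libraries a, b and c in that order. A log2 fold change is edgeR's fitted value, day 13 over day 1, with its standard error, and "rose" and "fell" are used of called genes. In the called genes with values below, the libraries of the 2 days did not overlap, except in C1qc. A list's count is to be read against 30.6% higher and 27.3% lower.

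**Figure D1:**
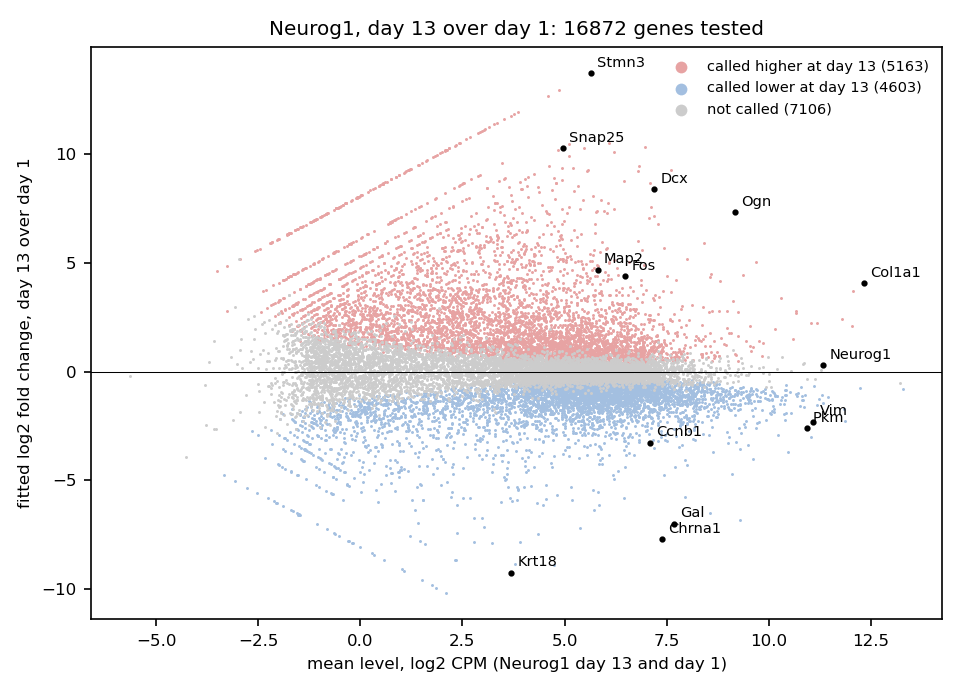
Fitted log2 fold change, day 13 over day 1, against the mean log2 CPM of both groups, for the 16872 genes tested; red points were called higher at day 13 (5163), blue points lower (4603) and grey points were not called. Diagonal stripes at the left are genes with 0, 1 or few counts in one group. Neurog1 lies near 0 at a high level, Stmn3, Snap25 and Dcx lie far above 0, and Gal, Chrna1 and Krt18 far below.

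No difference between the days was called for the induced factor itself. Neurog1 (chromosome 13, 56250478 to 56252163, minus strand, mm10) had 1277, 3144 and 4068 CPM at day 13 and 2055, 3842 and 1083 CPM at day 1. The groups overlapped, and the gene was not called (log2 fold change 0.28 ± 0.56, adjusted p = 0.683). Reads of the viral transcript and of the endogenous gene cannot be told apart in these counts. The lowest day-13 level was in library a, in which the summed level of the neuronal transcription factors was also lowest (1487, 1873 and 2165 CPM at day 13 and 612, 811 and 572 CPM at day 1). The part of the Neurog1 level in the neuronal results was not tested.

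Neuronal transcription factors were higher at day 13 in most cases. Of 32 listed genes 27 were tested, 23 rose and none fell, with a median log2 fold change of 3.64, against 0.08 over all genes. In the comparison of day 1 with the controls, which shares the day-1 libraries, 11 of the 27 were already higher and 0 lower. Of all genes tested, 6.78% were higher in that comparison. Neurod6, a relative of NeuroD1 found in differentiating neurons, had 5.44, 6.49 and 11.9 CPM at day 13 and 0 counts in every day-1 library, at least 126-fold higher. Nhlh1, a helix-loop-helix factor of newly born neurons, had 182, 208 and 264 CPM at day 13 and 2.1, 5.83 and 2.26 CPM at day 1. Every day-13 library was above the day-1 libraries (log2 fold change 5.99 ± 0.60, adjusted p = 1.55e-06). The control mean was 0.0603 CPM. Myt1, a zinc finger factor that represses non-neuronal genes, had 17.2, 53.4 and 77.6 CPM at day 13 and 0, 0.177 and 0 CPM at day 1, with 3 counts over all day-1 libraries and a ratio of 794-fold (95% counting interval 271 to 3853). Pou4f1 (Brn3a), a homeodomain factor of sensory neurons, had 4.99, 16.2 and 20.9 CPM at day 13 and 0.0658, 0.118 and 0.6 CPM at day 1 (log2 fold change 5.73 ± 0.67, adjusted p = 6.17e-06). Sox4 and Sox11, HMG-box factors of immature neurons, were present in every day-1 library and had smaller fold changes. Sox4 had 137, 250.0 and 299 CPM at day 13 and 81.7, 83.1 and 83.3 CPM at day 1 (log2 fold change 1.47 ± 0.27, adjusted p = 0.00033). Sox11 had 219, 232 and 327 CPM at day 13 and 167, 216 and 145 CPM at day 1 (log2 fold change 0.56 ± 0.19, adjusted p = 0.0217). The call of Sox11 was lost without library c of day 13 (0.36, adjusted p = 0.139), without library a of day 1 (0.51, adjusted p = 0.0753) and without library c of day 1 (0.43, adjusted p = 0.103). Rcor2, a REST corepressor subunit, had the highest mean CPM of the members not called, with 177, 162 and 185 CPM at day 13 and 80.2, 146 and 84.3 CPM at day 1, all day-13 values above the day-1 values. It was called higher without library b of day 1 (1.08, adjusted p = 0.0132).

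Proneural factors bind E-boxes, and 25.7% of the RefSeq promoter windows of these genes held CAGATG, its reverse complement CATCTG, or the palindrome CATATG in the 250 bases before the start (9 of 35 windows, for 24 of the 32 genes), against 17.3% of all 32851 windows. A match is a description of letters and no evidence of binding. The window of Sox11, the risen member with the highest mean CPM among those that held one, is shown because it carries CATATG close to the start (chr12:27342719-27342968, minus strand, GRCm38.p6, the assembly that mm10 names; capitals mark the match, 32 to 27 bases before the start).
Sox11: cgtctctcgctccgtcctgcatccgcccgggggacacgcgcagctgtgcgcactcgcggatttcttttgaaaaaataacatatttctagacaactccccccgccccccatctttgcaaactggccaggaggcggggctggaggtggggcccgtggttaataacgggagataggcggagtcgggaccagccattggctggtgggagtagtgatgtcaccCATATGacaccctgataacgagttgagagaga

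Genes that were called higher on day 1 than in the controls, a comparison that shares the day-1 libraries with this one, took different courses. In it 1144 genes (6.78%) were called higher and 914 (5.42%) lower. Dll1, a Notch ligand switched on by proneural factors, had 25.6, 23.7 and 28.5 CPM at day 13 and 56.2, 56.1 and 48.1 CPM at day 1. It fell (log2 fold change -1.04 ± 0.25, adjusted p = 0.00245), and the control mean was 0.13 CPM. Gal, the neuropeptide galanin, had 1.91, 3.04 and 4.65 CPM at day 13 and 356, 593 and 279 CPM at day 1 (log2 fold change -6.99 ± 0.49, adjusted p = 8.84e-08). Its control mean was 0.0623 CPM. Hes6, a HES family member that promotes neuronal differentiation, had 188, 124 and 94.2 CPM at day 13 and 138, 217 and 142 CPM at day 1; the groups overlapped and it was not called. Of 19 tested Notch pathway genes 8 rose and 4 fell. Dll4, another ligand, had 7.07, 20.6 and 16.2 CPM at day 13 and 0, 0.0589 and 0 CPM at day 1, a ratio of 699.7-fold (95% counting interval 125 to 27670.0). Mfng, a glycosyltransferase that modifies Notch receptors, had 10.3, 19 and 35 CPM at day 13 and 0, 0.235 and 0.133 CPM at day 1 (log2 fold change 7.33 ± 0.78, adjusted p = 5.56e-06). Its relative Lfng had 6.96, 4.74 and 2.23 CPM at day 13 and 21.2, 15.9 and 22 CPM at day 1 (log2 fold change -2.09 ± 0.48, adjusted p = 0.00178). Heyl, a Notch target, fell, with 10.6, 8.35 and 3.69 CPM at day 13 and 85.8, 152 and 78.3 CPM at day 1 (log2 fold change -3.81 ± 0.44, adjusted p = 5.63e-06). Dlk1, an atypical Notch ligand and imprinted gene, had 1773, 2098 and 954 CPM at day 13 and 57.7, 41.8 and 49.6 CPM at day 1 (log2 fold change 5.02 ± 0.40, adjusted p = 2.4e-07).

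Neuronal cytoskeleton genes include tubulins and associated proteins that fibroblasts also make. Of 35 tested, 29 rose and none fell, with a median log2 fold change of 1.93. Dcx (doublecortin, a microtubule protein of migrating neurons; chromosome X, 143855842 to 143933311, minus strand) had 121, 309 and 449 CPM at day 13 and 0.132, 2.06 and 0.333 CPM at day 1. No day-13 value came near the day-1 values (log2 fold change 8.38 ± 0.84, adjusted p = 1.53e-06). Stmn3, a stathmin family regulator of microtubules (chromosome 2, 181306459 to 181314500, minus strand), had 62.5, 114 and 124 CPM at day 13 and 0 counts in all day-1 libraries, at least 1592-fold higher. Ina, the intermediate filament alpha-internexin, had 33.4, 84.4 and 64.6 CPM at day 13 and 0, 0.0589 and 0.2 CPM at day 1 (log2 fold change 9.36 ± 0.66, adjusted p = 9.21e-08). Tubb3, the neuronal beta-tubulin, had 194, 365 and 417 CPM at day 13 and 58.7, 189 and 70.6 CPM at day 1. Its groups did not overlap, but library b of day 1 came close to library a of day 13 (log2 fold change 1.61 ± 0.52, adjusted p = 0.015). The Tubb3 call was lost without library c of day 13 (1.39, adjusted p = 0.051), without library a of day 1 (1.31, adjusted p = 0.0693) and without library c of day 1 (1.38, adjusted p = 0.0667). Map2, a dendritic microtubule protein, had 53.5, 131 and 141 CPM at day 13 and 5.33, 3.3 and 4 CPM at day 1 (log2 fold change 4.69 ± 0.48, adjusted p = 1.95e-06). The control mean, at 18.8 CPM, lay between those of the 2 days. Map1b, a microtubule protein of growth cones, had 300.3, 599 and 469 CPM at day 13 and 192, 193 and 117 CPM at day 1 (log2 fold change 1.45 ± 0.37, adjusted p = 0.00358). Tuba1a, an alpha-tubulin, had 2110.5, 2127 and 2112 CPM at day 13 and 1511, 1700.0 and 1627 CPM at day 1 and was not called (log2 fold change 0.39 ± 0.18, adjusted p = 0.0801).

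**Figure D2:**
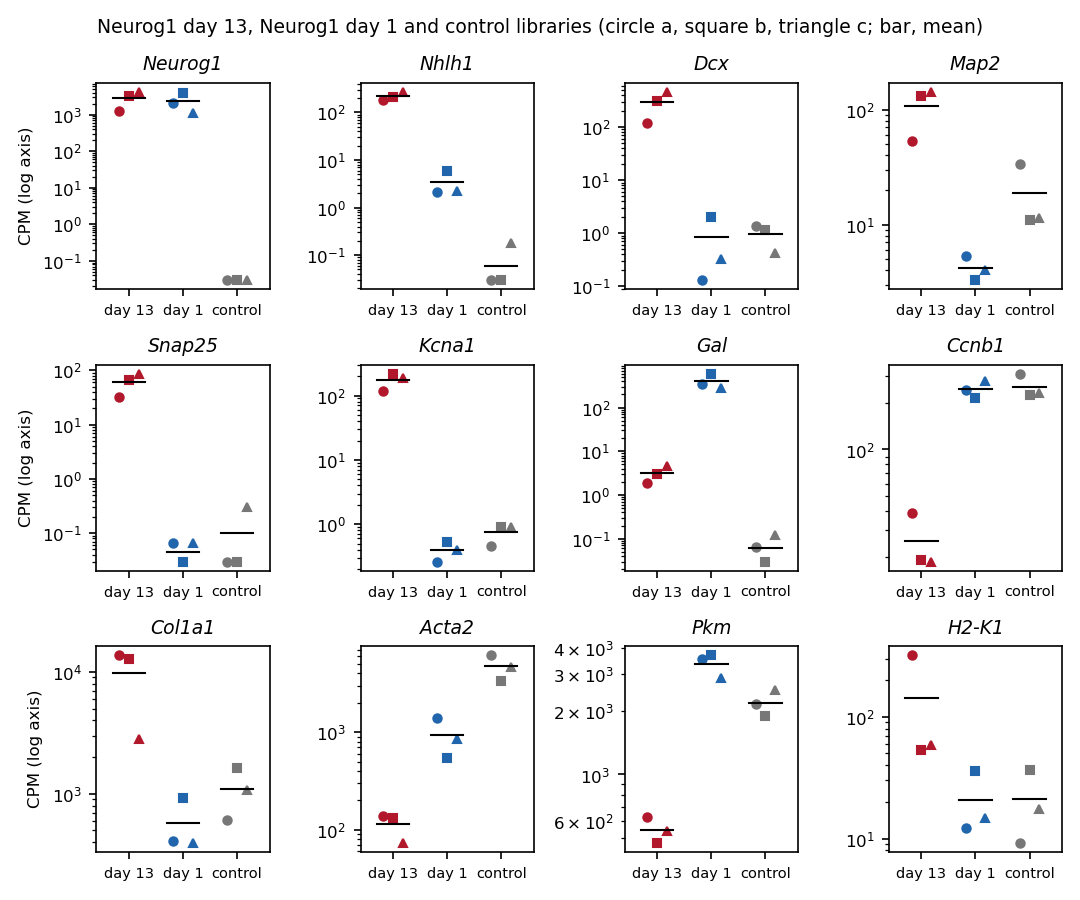
Level of 12 genes (CPM, log axis, a scale of its own in each panel) in the Neurog1 day-13, Neurog1 day-1 and control libraries; circles, squares and triangles are libraries a, b and c, bars are means, and libraries with 0 are drawn at 0.03 CPM. Neurog1 overlaps between the days, Nhlh1, Dcx, Map2, Snap25 and Kcna1 are higher in each day-13 library, Gal, Ccnb1, Acta2 and Pkm are lower in each, and Col1a1 and H2-K1 are higher with 1 day-13 library apart from the other two.

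Of 20 tested neuronal RNA-binding proteins 17 rose and 1 fell (median 3.48). Nova1, a splicing factor of neurons, had 136, 158 and 141 CPM at day 13 and 1.91, 4.47 and 6 CPM at day 1 (log2 fold change 5.13 ± 0.40, adjusted p = 2.11e-07). Elavl3 (HuC) had 37.5, 105 and 139 CPM at day 13 and 0.197, 0.118 and 0.133 CPM at day 1 (log2 fold change 9.23 ± 0.63, adjusted p = 7.24e-08). Rbfox3, the antigen NeuN of mature neurons, had 12.1, 29.4 and 27.4 CPM at day 13 and 0.0658, 0.0589 and 0 CPM at day 1, 2 counts over all day-1 libraries and a ratio of 549-fold (95% counting interval 152 to 4538). The 1 that fell was Ptbp1, the splicing repressor that non-neuronal cells carry, with 198, 192 and 128 CPM at day 13 and 546, 408 and 319.8 CPM at day 1 (log2 fold change -1.30 ± 0.27, adjusted p = 0.0009). Its neuronal paralog Ptbp2 had 76.7, 102 and 146 CPM at day 13 and 83.5, 82.5 and 102 CPM at day 1, overlapping, and was not called.

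Axon guidance and adhesion genes rose in 32 of 38 cases and fell in 3 (median 2.82). Lsamp, a cell adhesion protein of the limbic system, had 68.8, 112 and 85.3 CPM at day 13 and 0.132, 0.0589 and 0 CPM at day 1, a ratio of 1406-fold (95% counting interval 481 to 6819). Cntnap2, a neurexin relative at nodes of axons, had 6.79, 10.6 and 12.9 CPM at day 13 and 0 counts at day 1, at least 161-fold higher. Sema3c, a secreted guidance cue, had 545, 481 and 453 CPM at day 13 and 67.1, 36.8 and 73.5 CPM at day 1 (log2 fold change 3.06 ± 0.39, adjusted p = 1.24e-05). The fallen members were the semaphorin receptor Nrp1, its ligand Sema3a and the transmembrane semaphorin Sema6d. Nrp1 had 75.4, 104 and 79.4 CPM at day 13 and 403, 229 and 171 CPM at day 1 (log2 fold change -1.63 ± 0.46, adjusted p = 0.00625). Sema3a had 54.4, 42.7 and 70.3 CPM at day 13 and 152, 89.5 and 138 CPM at day 1 (log2 fold change -1.18 ± 0.38, adjusted p = 0.0151), and Sema6d had a log2 fold change of -1.06. The Sema3a call was lost without library a of day 1 (-1.03, adjusted p = 0.054) and without library b of day 13 (-1.03, adjusted p = 0.0652). That of Sema6d was lost without library b of day 1 (-0.77, adjusted p = 0.0797) and without library a of day 13 (-0.87, adjusted p = 0.0599).

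Of 39 tested genes for transmitter release 33 rose and 2 fell (median 3.19), and the 33 rose by at least 2-fold. Snap25, a SNARE protein of the vesicle fusion machine (chromosome 2, 136713453 to 136782428, plus strand), had 32.5, 67.4 and 86.4 CPM at day 13 and 0.0658, 0 and 0.0666 CPM at day 1, 2 counts over the day-1 libraries and a ratio of 1488-fold (95% counting interval 412 to 12296). Syn2, a synapsin on synaptic vesicles, had 97.9, 171 and 138 CPM at day 13 and 0, 0.0589 and 0.2 CPM at day 1 (log2 fold change 10.52 ± 0.56, adjusted p = 1.15e-08). Syt1, the calcium sensor of release, had 77.7, 101 and 69.6 CPM at day 13 and 2.3, 4.53 and 1.2 CPM at day 1, with library c the lowest at day 13 (log2 fold change 4.94 ± 0.60, adjusted p = 8.23e-06). Sncb, beta-synuclein, had 8.02, 15 and 8.7 CPM at day 13 and 0 counts at day 1, at least 168-fold higher. The fallen members were Sypl and Sncg. Sypl, a synaptophysin relative of many tissues, had 74.3, 59 and 50 CPM at day 13 and 145, 118 and 107 CPM at day 1 (log2 fold change -1.01 ± 0.24, adjusted p = 0.00194). Sncg, gamma-synuclein, had 0.0561, 0 and 0.152 CPM at day 13 and 1.97, 2.94 and 5.6 CPM at day 1 (log2 fold change -5.50 ± 0.86, adjusted p = 7.59e-05). Nsf, the ATPase that recycles SNAREs in every cell, had 47.7, 58.2 and 45.6 CPM at day 13 and 77.8, 66.9 and 46.6 CPM at day 1, overlapping, and was not called.

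On the receiving side, 29 of 36 tested postsynaptic genes rose and 1 fell (median 2.39; 7 of 43 listed had too few reads to test). Gria2, the AMPA receptor subunit that limits calcium entry, had 18.9, 59.5 and 86.1 CPM at day 13 and 0.263, 0.0589 and 0.0666 CPM at day 1 (log2 fold change 8.67 ± 0.69, adjusted p = 6.27e-07). Grik3, a kainate receptor subunit, had 7.74, 30.3 and 20.2 CPM at day 13 and 0.0658, 0.118 and 0.0666 CPM at day 1 (log2 fold change 7.72 ± 0.84, adjusted p = 3.01e-06). Gabbr1, of the GABA-B receptor, and Dlg4 (PSD-95), a scaffold, were present on day 1 and rose by 1.70 and 1.02 on the log2 scale. Homer1, a scaffold of metabotropic receptors, fell, with 37, 34.6 and 33.5 CPM at day 13 and 90.6, 63 and 72.9 CPM at day 1 (log2 fold change -1.11 ± 0.22, adjusted p = 0.000494).

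Of 46 tested genes of voltage-gated channels 39 rose and 1 fell (median 3.33). Kcna1, the Kv1.1 channel of axons, had 119, 217 and 189 CPM at day 13 and 0.263, 0.53 and 0.4 CPM at day 1 (log2 fold change 8.74 ± 0.43, adjusted p = 8.86e-09). Scn3a, a sodium channel of embryonic neurons, had 53.1, 120.4 and 158 CPM at day 13 and 5.85, 15.9 and 5.33 CPM at day 1 (log2 fold change 3.61 ± 0.55, adjusted p = 5.99e-05), with a control mean of 1.08 CPM. Cacna2d1, an auxiliary calcium channel subunit, had 225, 348 and 480.4 CPM at day 13 and 54.1, 55.4 and 61.3 CPM at day 1 (log2 fold change 2.62 ± 0.26, adjusted p = 1.42e-06). Kcnd2, an A-type potassium channel, had 8.92, 20.3 and 16.2 CPM at day 13 and 0.0658, 0 and 0 CPM at day 1, 1 count at day 1 and a ratio of 723-fold (95% counting interval 129 to 28586). Kcnq5, which fell, had 2.8, 4.43 and 4.4 CPM at day 13 and 9.4, 6.42 and 5.13 CPM at day 1 (log2 fold change -0.85 ± 0.32, adjusted p = 0.0325), a call lost with library totals, without library a of day 1 (-0.58, adjusted p = 0.175) and without library a of day 13 (-0.67, adjusted p = 0.117). Summed over the 49 listed genes, channel transcripts came to 1204, 2100.3 and 2379 CPM at day 13 and 197, 256 and 229 CPM at day 1.

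Few genes of transmitter identity had many reads. Of 6 tested glutamatergic genes 3 rose and 1 fell. Slc17a7 (VGLUT1) had 18.4, 44.1 and 40.9 CPM at day 13 and 6.12, 10 and 3.73 CPM at day 1 (log2 fold change 2.38 ± 0.52, adjusted p = 0.00127). Slc17a6 (VGLUT2) had 3.03, 4.12 and 3.29 CPM at day 13 and 0.46, 0.294 and 0.266 CPM at day 1 (log2 fold change 3.33 ± 0.51, adjusted p = 6.74e-05). The summed level of the 8 listed genes was lower in every day-13 library, at 264, 332 and 354 CPM at day 13 and 555, 517 and 540.2 CPM at day 1. Of 10 GABAergic and glycinergic genes 4 had enough reads to test, 2 of which rose and 1 fell. Gad1, which makes GABA, had 3 counts over the day-13 libraries and 45 over the day-1 libraries and was not tested, and the vesicular transporter Slc32a1 had 1 and 0. The fallen one was Dlx2, a homeodomain factor of forebrain interneurons, with 0, 0.412 and 0.607 CPM at day 13 and 6.05, 2.18 and 5.86 CPM at day 1 (log2 fold change -3.73 ± 0.78, adjusted p = 0.000859). Of 10 tested cholinergic and monoaminergic genes 5 rose and 1 fell. Chat and Slc18a3, which make and load acetylcholine, were at or below 1.74 CPM in each day-13 library and at 0 in each day-1 library, at least 13.2-fold and at least 13.8-fold higher. Slc18a2, the vesicular monoamine transporter, had 9.03, 9.38 and 14.2 CPM at day 13 and 4.87, 3.83 and 5.2 CPM at day 1 (log2 fold change 1.23 ± 0.27, adjusted p = 0.00125).

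Markers of peripheral sensory neurons, a lineage in which Neurog1 acts in the embryo, rose and fell. Of 24 tested, 15 rose and 3 fell (median 2.86). Ntrk3, the neurotrophin-3 receptor, had 2.69, 15.1 and 9.25 CPM at day 13 and 0, 0.118 and 0 CPM at day 1, a ratio of 217-fold (95% counting interval 59.8 to 1796). Piezo2, a mechanically gated channel, had 36.9, 76.6 and 50.3 CPM at day 13 and 26.8, 16.5 and 18.2 CPM at day 1 (log2 fold change 1.41 ± 0.28, adjusted p = 0.000527). The fallen members were Runx1 and Runx3, factors that divide sensory neurons into classes, and the irritant channel Trpa1. Runx1 had 18.7, 17 and 12.1 CPM at day 13 and 35.5, 69.8 and 49.4 CPM at day 1 (log2 fold change -1.69 ± 0.28, adjusted p = 0.000108). Trpa1 had 0.0561, 1.13 and 0.405 CPM at day 13 and 3.95, 3.24 and 2.4 CPM at day 1 (log2 fold change -2.56 ± 0.60, adjusted p = 0.00196). Runx3 had 1 count over the day-13 libraries and 52 over the day-1 libraries, 62.8-fold (95% counting interval 10.8 to 2527) lower at day 13. Of 22 tested genes for neuropeptides and dense-core vesicles 12 rose and 2 fell. The median was 3.02 by fitted values and 1.85 with the 6 genes that had 0 counts in a group placed at their bounds. The granins Scg3 and Chga, which build secretory granules, had 0 counts at day 1. Scg3 had 10.6, 23.1 and 19.2 CPM at day 13, at least 281-fold higher. Chga had 11.1, 21.6 and 17.2 CPM, at least 264-fold higher. Cpe and Pam, which process peptides, were present on day 1 and rose by 1.18 and 1.65 on the log2 scale. Sct, the hormone secretin, had 212, 58 and 193 CPM at day 13 and 213, 154 and 89.9 CPM at day 1 and was not called.

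By stage, 13 of 16 tested markers of immature neurons rose and 1 fell (median 1.38), and 20 of 23 tested markers of mature neurons rose and 1 fell (median 4.08, or 3.84 with the 1 gene at 0 counts placed at its bound). The fallen ones were Tmsb10, a thymosin, and Thy1, a surface protein of mature neurons that fibroblasts also carry. Tmsb10 had 487, 365 and 469 CPM at day 13 and 1626, 1665 and 1659 CPM at day 1 (log2 fold change -1.91 ± 0.26, adjusted p = 2.04e-05). Thy1 had 35.8, 23.6 and 17 CPM at day 13 and 120.1, 77.6 and 137 CPM at day 1 (log2 fold change -2.13 ± 0.50, adjusted p = 0.002). Thy1 was higher in the controls, at 371 CPM. Of 9 tested progenitor genes 3 rose and 2 fell (median 0.41). Msi1, an RNA-binding protein, was a risen one, with means of 29.5 CPM at day 13 and 9.92 CPM at day 1 (log2 fold change 1.57 ± 0.29, adjusted p = 0.000342). Nes (nestin), an intermediate filament of neural progenitors and of some cultured fibroblasts, had 4.49, 11.1 and 3.54 CPM at day 13 and 195, 169 and 94.8 CPM at day 1 (log2 fold change -4.58 ± 0.50, adjusted p = 3.04e-06). Sox1 had 0 counts in the 6 libraries, and Sox2 was not called, with 48 counts over the day-13 libraries and 31 over the day-1 libraries.

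**Figure D3:**
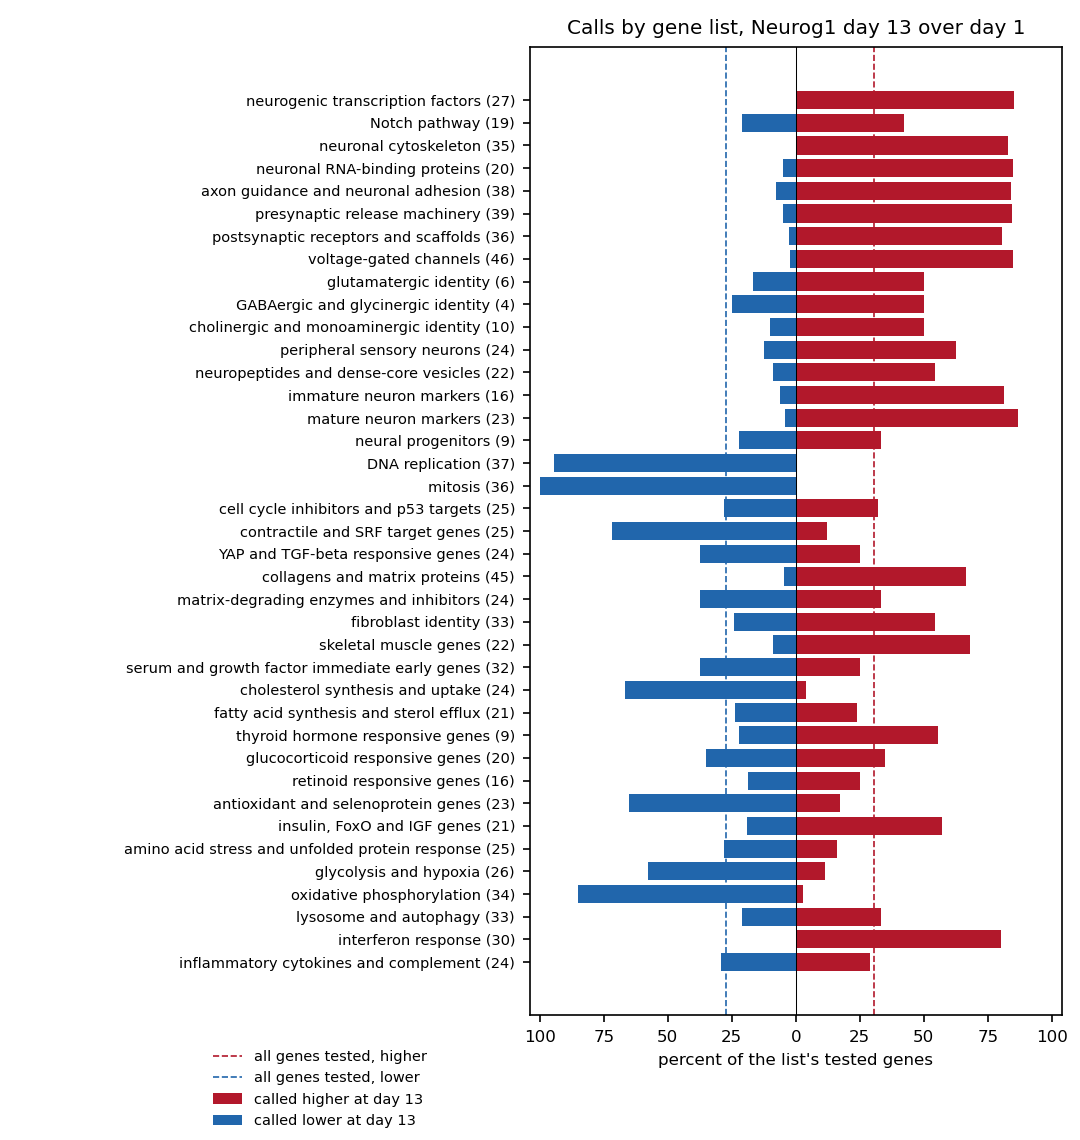
Percent of each list's tested genes (number in brackets) called higher (red, to the right) or lower (blue, to the left) at day 13 of Neurog1 against day 1; dashed lines mark the percent of all genes tested, 30.6% higher and 27.3% lower. Most neuronal lists, the interferon list and the list of collagens and matrix proteins extend far past the red line, and DNA replication, mitosis, contractile genes, cholesterol synthesis, antioxidant genes, glycolysis and oxidative phosphorylation past the blue line.

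Genes of the cell cycle fell. All 36 mitosis genes tested fell, each at least 2-fold, with a median log2 fold change of -2.56. Of 37 DNA replication genes 35 fell and none rose (median -1.87). Ccnb1, cyclin B1 (chromosome 13, 100778650 to 100786570, minus strand), had 38.8, 19.3 and 18.8 CPM at day 13 and 244, 216 and 279 CPM at day 1 (log2 fold change -3.27 ± 0.28, adjusted p = 4.1e-07). Cdk1, its kinase, had 67, 35.5 and 26.2 CPM at day 13 and 291, 224 and 343 CPM at day 1 (log2 fold change -2.74 ± 0.32, adjusted p = 6.59e-06). Mki67, the proliferation antigen Ki-67, had 86.3, 65.4 and 45.3 CPM at day 13 and 309, 296 and 223 CPM at day 1 (log2 fold change -2.07 ± 0.25, adjusted p = 8.85e-06). Top2a, the topoisomerase that untangles chromosomes, had 174, 90.1 and 71.9 CPM at day 13 and 744, 668 and 581 CPM at day 1 (log2 fold change -2.57 ± 0.32, adjusted p = 9.53e-06). Among the 3 day-13 libraries, a had the highest value of each of these 4 genes, and the control means were 256, 260.4, 325 and 646 CPM. In S phase genes, Rrm1, of ribonucleotide reductase, had 155, 77.2 and 78.7 CPM at day 13 and 560.0, 448 and 399 CPM at day 1 (log2 fold change -2.18 ± 0.30, adjusted p = 2.63e-05). Pcna had 136, 67.6 and 58.6 CPM at day 13 and 332, 276 and 349 CPM at day 1 (log2 fold change -1.87 ± 0.31, adjusted p = 0.000139). Pold1, a DNA polymerase subunit, was 1 of the 2 not called (53, 33.1 and 24.2 CPM at day 13 and 61.5, 45.4 and 47.8 CPM at day 1), and it was called lower without library a of day 13 (-0.86, adjusted p = 0.00959).

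Mitotic promoters often carry the CHR element TTTGAA and CCAAT boxes. The CHR element, on either strand, was in 37.5% of the 250-base windows of mitosis genes (12 of 32, for 30 of the 36 genes), against 16.0% of all windows. CCAAT, or ATTGG, was in 81.2% (26 of 32), against 33.8% of all windows. The list was chosen to hold mitosis genes, so these excesses are no measure of the change between the days. The window of Top2a, the member with the highest mean CPM among those that held a CHR element, is shown with its matches in capitals at 179 to 174 and 23 to 18 bases before the start (chr11:99024190-99024439, minus strand, GRCm38.p6).
Top2a: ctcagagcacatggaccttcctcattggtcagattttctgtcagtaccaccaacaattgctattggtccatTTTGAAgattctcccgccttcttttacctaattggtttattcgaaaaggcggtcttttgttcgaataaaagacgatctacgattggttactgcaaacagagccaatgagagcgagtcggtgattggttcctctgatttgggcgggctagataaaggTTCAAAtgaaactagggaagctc

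The inhibitors of the cycle and targets of p53 went both ways, and of 25 tested 8 rose and 7 fell. Cdkn1a (p21), which p53 switches on, had 96.6, 74.5 and 115 CPM at day 13 and 372, 450.4 and 403 CPM at day 1 (log2 fold change -2.10 ± 0.26, adjusted p = 8.42e-06). The p53 targets Mdm2 and Ccng1 also fell, with 83.2, 81 and 116 CPM at day 13 and 487, 283 and 477 CPM at day 1 for Mdm2 (log2 fold change -2.16 ± 0.31, adjusted p = 3.36e-05). Ccng1 had 213, 160.2 and 331 CPM at day 13 and 1160.1, 1184 and 1892 CPM at day 1 (log2 fold change -2.59 ± 0.40, adjusted p = 6.82e-05). Cdkn1c (p57), an imprinted inhibitor used in differentiating cells, had 473, 525 and 391 CPM at day 13 and 174, 145 and 152 CPM at day 1 (log2 fold change 1.56 ± 0.27, adjusted p = 0.000159). Sesn1, a sestrin that is also a p53 target, rose, with 85.6, 70.3 and 78.9 CPM at day 13 and 11.8, 21.6 and 17.3 CPM at day 1 (log2 fold change 2.21 ± 0.27, adjusted p = 8.83e-06).

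Contractile genes, many of them targets of serum response factor (SRF), fell in 18 of 25 cases and rose in 3 (median -1.32). In the comparison of day 1 with the controls, which shares the day-1 libraries, 14 were lower and 0 higher. Acta2, smooth muscle actin, had 139, 132 and 73.1 CPM at day 13 and 1385, 543 and 856 CPM at day 1, with 4722 CPM in the controls (log2 fold change -3.02 ± 0.41, adjusted p = 2.43e-05). Cnn1, calponin, had 1.91, 1.03 and 0.961 CPM at day 13 and 23.3, 9.89 and 36 CPM at day 1 (log2 fold change -4.15 ± 0.59, adjusted p = 3.59e-05; control mean 234 CPM). Actb, beta-actin, had 1609, 1556 and 1009 CPM at day 13 and 4362, 3036 and 2721 CPM at day 1 (log2 fold change -1.28 ± 0.38, adjusted p = 0.00921). Reads of near-identical actins can be split between copies, so single actin values are uncertain. The risen members were Mylk, the kinase of myosin light chain, Synpo2, an actin-binding protein of muscle, and Ldb3, a Z-disc protein, whose call was lost without library a or c of day 1 and without library a or b of day 13 (log2 fold changes 1.16 to 1.40, adjusted p 0.0671 to 0.0915). Mylk had 25.5, 50.8 and 20.3 CPM at day 13 and 1.38, 2.18 and 1.8 CPM at day 1 (log2 fold change 4.16 ± 0.51, adjusted p = 9.43e-06). Srf itself had 85.9, 96.1 and 58.2 CPM at day 13 and 109.7, 107 and 90.3 CPM at day 1 and was not called. The SRF site, the CArG box, was in 29.2% of the windows of these genes on either strand (7 of 24, for 21 of the 25 genes), against 1.47% of all windows. The list was chosen to hold SRF targets, so this excess is no measure of the change between the days. Actg1, gamma-actin, had 1029, 1129 and 801 CPM at day 13 and 1964, 1842 and 1520.0 CPM at day 1 (log2 fold change -0.85 ± 0.26, adjusted p = 0.0105). Its window is shown because it holds a CArG box, in capitals, 90 to 81 bases before the start (chr11:120348496-120348745, minus strand, GRCm38.p6).
Actg1: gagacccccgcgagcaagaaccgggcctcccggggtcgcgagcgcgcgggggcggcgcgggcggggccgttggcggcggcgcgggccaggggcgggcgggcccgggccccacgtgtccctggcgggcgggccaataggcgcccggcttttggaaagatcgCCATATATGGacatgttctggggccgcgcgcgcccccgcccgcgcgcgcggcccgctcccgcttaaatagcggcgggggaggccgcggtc

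Genes that answer to YAP and TGF-beta split, 6 higher and 9 lower of 24 tested. Ankrd1, a YAP target, had 1.85, 1.39 and 0.607 CPM at day 13 and 151, 37.5 and 126 CPM at day 1 (log2 fold change -6.35 ± 0.75, adjusted p = 6.58e-06). Ccn2 (CTGF) had 67, 127 and 6.57 CPM at day 13 and 68.5, 14.7 and 47.6 CPM at day 1, overlapping, and was not called. Tgfb2, a ligand, rose, with 109.7, 96.6 and 87.6 CPM at day 13 and 10.1, 23.1 and 10.7 CPM at day 1 (log2 fold change 2.74 ± 0.41, adjusted p = 5.08e-05).

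Of 45 tested genes of collagens and other matrix proteins 30 rose and 2 fell (median 2.11). Col1a1, the main chain of type I collagen (chromosome 11, 94936224 to 94953042, plus strand), had 13638, 12633 and 2831 CPM at day 13 and 407, 932 and 394 CPM at day 1 (log2 fold change 4.07 ± 0.67, adjusted p = 0.000122), and the control mean was 1096 CPM. Library c stood under a and b but above every day-1 value. Col1a2 had 10872, 10253 and 2590.2 CPM at day 13 and 424, 882 and 489 CPM at day 1. Col3a1 had 8934, 7764 and 3933 CPM at day 13 and 1822, 1929 and 1021 CPM at day 1, with the same order of day-13 libraries. Per length, Col1a1 averaged 1478 CPM per kb of exon at day 13 and 88 at day 1, against 174 and 56.9 for Tubb3, and 23.2 and 0.0665 for Dcx. Ogn (osteoglycin) had 1129, 1027 and 1267 CPM at day 13 and 5.66, 5.53 and 10.2 CPM at day 1, with library c the highest (log2 fold change 7.32 ± 0.48, adjusted p = 6.13e-08). Fmod (fibromodulin) had 159.9, 122 and 27.3 CPM at day 13 and 0.395, 0.353 and 0.4 CPM at day 1 (log2 fold change 8.05 ± 0.78, adjusted p = 1.2e-06). Both are small leucine-rich proteoglycans. The fallen members were Spp1 and Tnc. Spp1, osteopontin, had 30.6, 2.01 and 0.86 CPM at day 13 and 970.2, 888 and 1875 CPM at day 1 (log2 fold change -6.81 ± 1.28, adjusted p = 0.000365). Tnc, tenascin-C, had 185, 136 and 12.9 CPM at day 13 and 1612, 983 and 566 CPM at day 1 (log2 fold change -3.25 ± 0.76, adjusted p = 0.00187), with library c far under the others. Fn1, fibronectin, had 1706, 1462 and 551 CPM at day 13 and 908, 958 and 497 CPM at day 1, overlapping, and was not called. The list's summed level was 73486, 64449 and 28188 CPM at day 13 and 14719, 15608 and 11249.9 CPM at day 1, and 16288, 17323 and 15350.4 CPM in the controls.

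Matrix-degrading enzymes split, 8 higher and 9 lower of 24 tested. Mmp3 (stromelysin) had 0.897, 0.464 and 0.354 CPM at day 13 and 58.9, 86.8 and 103 CPM at day 1 (log2 fold change -7.18 ± 0.53, adjusted p = 1.45e-07). Timp1, an inhibitor, had 92.6, 20.2 and 9.61 CPM at day 13 and 366, 293 and 278 CPM at day 1 (log2 fold change -2.94 ± 0.67, adjusted p = 0.00165). Adamts2, which trims procollagen, had 329, 321 and 148 CPM at day 13 and 20.4, 37 and 25.4 CPM at day 1 (log2 fold change 3.27 ± 0.48, adjusted p = 4.78e-05). Of 33 tested fibroblast identity genes 18 rose and 8 fell (median 1.38). Vim, vimentin, had 1091, 695 and 416 CPM at day 13 and 5172, 2839 and 2859.6 CPM at day 1 (log2 fold change -2.30 ± 0.46, adjusted p = 0.000586). S100a4 had 3.48, 2.58 and 3.14 CPM at day 13 and 144, 96.2 and 273 CPM at day 1 (log2 fold change -5.80 ± 0.45, adjusted p = 2.09e-07). Dpt, dermatopontin, rose, with 220.0, 63.7 and 98.9 CPM at day 13 and 1.12, 3.83 and 2.8 CPM at day 1 (log2 fold change 5.62 ± 0.95, adjusted p = 0.00015). Prrx1, a mesenchymal homeodomain factor, had 208, 226 and 211 CPM at day 13 and 247, 289.7 and 324 CPM at day 1 and was not called. It was called lower without library a of day 1 (-0.52, adjusted p = 0.0436). The summed level of the list was 4235, 3320.0 and 2685 CPM at day 13, 6839.8, 4683 and 4826 CPM at day 1 and 11582, 7914 and 8009.8 CPM in the controls. Vim made up most of the sum in each day-1 library. The rest of the list summed higher in each day-13 library than in any day-1 library, and the median of the fold changes was positive.

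Of 22 tested skeletal muscle genes 15 rose and 2 fell (median 2.51). Against the controls, with the day-1 libraries shared, 1 was higher and 11 were lower at day 1. Myod1, the myogenic helix-loop-helix factor, had 4.94, 7.99 and 2.93 CPM at day 13 and 0, 0.118 and 0.0666 CPM at day 1, 3 counts over the day-1 libraries and a ratio of 83.1-fold (95% counting interval 28.2 to 405); the control mean was 0.904 CPM. Myh8, perinatal myosin, had 13.4, 19.3 and 3.74 CPM at day 13 and 0, 0.53 and 0.0666 CPM at day 1 (log2 fold change 5.82 ± 1.13, adjusted p = 0.000455). Chrna1, the muscle acetylcholine receptor subunit, went against the list, with 3.14, 1.24 and 0.405 CPM at day 13 and 475, 309.9 and 214 CPM at day 1 (log2 fold change -7.72 ± 0.79, adjusted p = 1.88e-06) and 7.05 CPM in the controls. The summed level of the list, Chrna1 included, was lower at day 13 (298, 324 and 144 CPM) than at day 1 (562, 387 and 299.6 CPM), while the median of the fold changes was positive.

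Lists chosen for what the change of medium adds or removes differed in their counts. Cholesterol synthesis and uptake genes and antioxidant and selenoprotein genes fell in most cases (66.7% and 65.2% of those tested). Of 32 tested immediate early genes of serum and growth factor response 8 rose and 12 fell. The AP-1 genes Fos and Jun rose, with 139.7, 308 and 67.1 CPM at day 13 and 9.34, 4.53 and 10.8 CPM at day 1 for Fos (log2 fold change 4.39 ± 0.66, adjusted p = 5.78e-05). Jun had 187, 267 and 151 CPM at day 13 and 118, 62 and 92.4 CPM at day 1 (log2 fold change 1.15 ± 0.31, adjusted p = 0.00473). The ERK pathway targets Etv4 and Dusp5 fell, with 1.07, 1.13 and 1.01 CPM at day 13 and 65.5, 41.5 and 58.8 CPM at day 1 for Etv4 (log2 fold change -5.68 ± 0.38, adjusted p = 6.67e-08). Dusp5 had 2.47, 1.7 and 1.06 CPM at day 13 and 107, 19.7 and 81.8 CPM at day 1 (log2 fold change -5.32 ± 0.83, adjusted p = 7.26e-05). Egr1 had 226, 377 and 122 CPM at day 13 and 208, 90.7 and 128 CPM at day 1, overlapping, and was not called. It was called higher without library c of day 13 (1.08, adjusted p = 0.0409).

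Cholesterol synthesis and uptake genes fell in 16 of 24 cases and rose in 1 (median -1.33). Msmo1, a sterol oxidase of the pathway, had 34.8, 53.8 and 67.1 CPM at day 13 and 179, 248 and 261 CPM at day 1 (log2 fold change -2.14 ± 0.25, adjusted p = 6.44e-06). Cyp51, which demethylates lanosterol, had 57.2, 94.5 and 84.7 CPM at day 13 and 219.8, 314 and 243 CPM at day 1 (log2 fold change -1.72 ± 0.24, adjusted p = 2.5e-05). Hmgcs1, an early enzyme of the pathway, had 121, 199 and 175 CPM at day 13 and 181, 327 and 208 CPM at day 1 and was not called. The risen one was Tm7sf2, a sterol reductase, with 70.8, 71.9 and 91.6 CPM at day 13 and 6.97, 17.9 and 8.86 CPM at day 1 (log2 fold change 2.79 ± 0.53, adjusted p = 0.000373). The sterol regulatory element TCACNCCAC, on either strand, was in 1 of 19 windows of this list (5.26%, for 16 of the 24 genes), against 1.05% of all windows. Of 21 tested genes of fatty acid synthesis and sterol efflux 5 rose and 5 fell. Abca1, the cholesterol exporter, had 93.9, 104 and 65.7 CPM at day 13 and 1.12, 5.42 and 4.73 CPM at day 1 (log2 fold change 4.54 ± 0.55, adjusted p = 8.42e-06). Apoe had 190.2, 77.2 and 49.4 CPM at day 13 and 13.2, 9.77 and 9.46 CPM at day 1 (log2 fold change 3.29 ± 0.71, adjusted p = 0.00111). Scd1, a desaturase, had 25.3, 44.1 and 20 CPM at day 13 and 92.3, 146 and 78.2 CPM at day 1 (log2 fold change -1.82 ± 0.34, adjusted p = 0.000367).

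Of 9 tested thyroid hormone genes 5 rose and 2 fell. Thra, a thyroid hormone receptor, had 156, 223 and 167 CPM at day 13 and 10.6, 14.3 and 12.2 CPM at day 1 (log2 fold change 3.88 ± 0.39, adjusted p = 1.62e-06). Klf9, a factor that thyroid hormone and glucocorticoids induce, fell, with 12.5, 7.06 and 10.4 CPM at day 13 and 18.5, 22.5 and 24.3 CPM at day 1 (log2 fold change -1.13 ± 0.22, adjusted p = 0.000457). Glucocorticoid responsive genes were at 7 higher and 7 lower of 20. Tsc22d3 (GILZ) had 147, 140.3 and 124 CPM at day 13 and 22.8, 34.3 and 26.7 CPM at day 1 (log2 fold change 2.29 ± 0.26, adjusted p = 4.14e-06). Fkbp5 had 18, 16.7 and 16.8 CPM at day 13 and 30.4, 35 and 34 CPM at day 1 (log2 fold change -0.95 ± 0.20, adjusted p = 0.00104). Retinoid responsive genes were at 4 higher and 3 lower of 16. Rarb, a retinoic acid receptor, had 20.3, 15.8 and 25.3 CPM at day 13 and 2.17, 1.82 and 2.07 CPM at day 1 (log2 fold change 3.34 ± 0.34, adjusted p = 1.8e-06). Crabp1, a retinoic acid binding protein, had 313, 252 and 296 CPM at day 13 and 717, 748 and 931 CPM at day 1 (log2 fold change -1.48 ± 0.30, adjusted p = 0.000707).

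Antioxidant and selenoprotein genes fell in 15 of 23 cases and rose in 4 (median -0.86). Srxn1, sulfiredoxin, had 34.4, 25.5 and 24.9 CPM at day 13 and 648, 322 and 439 CPM at day 1 (log2 fold change -4.05 ± 0.33, adjusted p = 2.67e-07). Selenop, the selenium carrier, had 116, 118 and 114 CPM at day 13 and 4.14, 7.06 and 7.39 CPM at day 1 (log2 fold change 4.22 ± 0.32, adjusted p = 1.56e-07). Of 21 tested insulin, FoxO and IGF genes 12 rose and 4 fell. Igf1 had 201, 406 and 324 CPM at day 13 and 1.25, 4 and 3.2 CPM at day 1 (log2 fold change 6.77 ± 0.60, adjusted p = 5.65e-07). Igfbp3, an IGF carrier, had 859, 836 and 317 CPM at day 13 and 11.5, 11.5 and 10.2 CPM at day 1 (log2 fold change 5.92 ± 0.48, adjusted p = 2.75e-07). Tfrc, the transferrin receptor, had 18, 45.6 and 48 CPM at day 13 and 449.7, 350.2 and 418 CPM at day 1 (log2 fold change -3.45 ± 0.38, adjusted p = 3.42e-06).

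Genes of energy metabolism were lower in most cases. Of 26 tested genes of glycolysis and the hypoxia response 15 fell and 3 rose (median -1.47). Pkm, pyruvate kinase, had 629, 473 and 542 CPM at day 13 and 3539, 3672 and 2855 CPM at day 1 (log2 fold change -2.61 ± 0.22, adjusted p = 4.28e-07). Pgk1 had 167, 107 and 109 CPM at day 13 and 1392, 1447 and 1097 CPM at day 1 (log2 fold change -3.36 ± 0.29, adjusted p = 4.31e-07). Ldha had 394, 253 and 196 CPM at day 13 and 2197, 2187 and 1900.2 CPM at day 1 (log2 fold change -2.90 ± 0.31, adjusted p = 2.89e-06). Several glycolytic enzymes have many processed pseudogenes, so their counts carry an uncertainty that is not measured here. The risen members include Pfkm, the muscle form of phosphofructokinase, and Slc2a3, a glucose transporter of neurons. Pfkm had 83.9, 81.2 and 65.3 CPM at day 13 and 22.2, 29.8 and 22.3 CPM at day 1 (log2 fold change 1.63 ± 0.23, adjusted p = 2.75e-05). Slc2a3 had 7.91, 12.1 and 7.18 CPM at day 13 and 4.93, 3.24 and 2 CPM at day 1 (log2 fold change 1.42 ± 0.36, adjusted p = 0.0034). Of 34 tested genes of oxidative phosphorylation 29 fell, 7 of these by at least 2-fold, and 1 rose (median -0.87). With library totals 20 fell, and 23 fell without library b or without library c of day 13. Cycs, cytochrome c, had 52.4, 38.6 and 44.3 CPM at day 13 and 192, 171 and 228 CPM at day 1 (log2 fold change -2.13 ± 0.20, adjusted p = 9.94e-07). Atp5b, of the ATP synthase, had 689.7, 533 and 532 CPM at day 13 and 1610.3, 1364 and 1411 CPM at day 1 (log2 fold change -1.32 ± 0.22, adjusted p = 0.000148). The risen one was the coactivator Ppargc1a (PGC-1 alpha), with 0.954, 2.27 and 1.06 CPM at day 13 and 0.526, 0.589 and 0.333 CPM at day 1 (log2 fold change 1.55 ± 0.61, adjusted p = 0.0406). This call was lost without library b of day 13 (1.04, adjusted p = 0.206) and without any 1 day-1 library (adjusted p of 0.0631 to 0.126). The share of counts in mitochondrial DNA genes was 2.22% ± 0.531 at day 13 and 3.16% ± 0.921 at day 1 (SD, n = 3; exact permutation test, two-sided, p = 0.3, where 3 against 3 cannot go below 0.1). Amino acid stress and unfolded protein genes were at 4 higher and 7 lower of 25, and lysosome and autophagy genes at 11 higher and 7 lower of 33. In the first of these lists Psat1, of serine synthesis, had 218, 207 and 164 CPM at day 13 and 576, 461 and 391 CPM at day 1 (log2 fold change -1.28 ± 0.21, adjusted p = 0.000131). In the second Ctsf, cathepsin F, had 91.9, 87.6 and 109 CPM at day 13 and 4.8, 7.3 and 5.73 CPM at day 1 (log2 fold change 4.01 ± 0.26, adjusted p = 5.45e-08).

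Interferon response genes rose in 24 of 30 cases and fell in none (median 2.95). Ifi27 had 325, 137 and 204 CPM at day 13 and 3.42, 22.8 and 10.3 CPM at day 1 (log2 fold change 4.18 ± 0.78, adjusted p = 0.000352). H2-K1, a class I antigen-presenting protein, had 318, 53.4 and 58.3 CPM at day 13 and 12.3, 35.7 and 14.7 CPM at day 1 (log2 fold change 2.78 ± 0.75, adjusted p = 0.0052). H2-D1 had 578, 107 and 123 CPM at day 13 and 24.7, 57.1 and 46.9 CPM at day 1 (log2 fold change 2.65 ± 0.60, adjusted p = 0.0015). In each of these 3 genes library a was the highest of the day-13 libraries, and b was the lowest. Mx1, an antiviral GTPase, had 7.29, 1.49 and 2.48 CPM at day 13 and 0.0658, 0 and 0 CPM at day 1, a ratio of 172-fold (95% counting interval 30.6 to 6835). B2m, the partner of class I proteins, had 958, 265 and 397 CPM at day 13 and 263, 321 and 479 CPM at day 1 and was not called. The list's summed level was 3715, 1017 and 1605 CPM at day 13, against 519.7, 757 and 809 CPM at day 1 and 723, 1359 and 955 CPM in the controls, so library b of day 13 lay within the range of the controls. Without library a of day 13, 21 of 30 rose, H2-K1 was no longer called (1.41, adjusted p = 0.0645) and H2-D1 had a smaller fold change (1.42, adjusted p = 0.012). The summed level of 15 macrophage markers was also highest in library a among the day-13 libraries, at 127, 75.9 and 31.3 CPM at day 13, 62.6, 84.7 and 62.6 CPM at day 1 and 164, 254 and 195 CPM in the controls, and its part in the interferon result was not tested. The ISRE core GAAANNGAAA, on either strand, was in 34.5% of the windows of these genes (10 of 29, for 24 of the 30 genes), against 2.98% of all windows. The list was chosen to hold interferon response genes, so this excess is no measure of the change between the days. The window of Bst2 (tetherin), the risen member with the highest mean CPM among those that held the ISRE core, is shown. Bst2 had 216, 58.5 and 88 CPM at day 13 and 10.6, 17.1 and 19.6 CPM at day 1 (log2 fold change 2.94 ± 0.60, adjusted p = 0.000693). Its 2 matches overlap, at 130 to 121 and 124 to 115 bases before the start (chr8:71537473-71537722, minus strand, GRCm38.p6; capitals mark both).
Bst2: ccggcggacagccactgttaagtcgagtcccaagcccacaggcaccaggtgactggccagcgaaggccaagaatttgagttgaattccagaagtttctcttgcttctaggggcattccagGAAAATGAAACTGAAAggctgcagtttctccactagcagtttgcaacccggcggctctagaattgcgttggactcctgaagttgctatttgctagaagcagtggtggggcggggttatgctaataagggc
Inflammatory cytokine and complement genes were at 7 higher and 7 lower of 24 tested. Ptgs2 (COX-2) had 1.63, 1.49 and 1.62 CPM at day 13 and 199, 44 and 94.3 CPM at day 1 (log2 fold change -6.15 ± 1.01, adjusted p = 0.000115). Cxcl12, a stromal chemokine, had 323, 324 and 168 CPM at day 13 and 59.1, 53.8 and 86.5 CPM at day 1 (log2 fold change 2.03 ± 0.39, adjusted p = 0.00045).

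**Figure D4:**
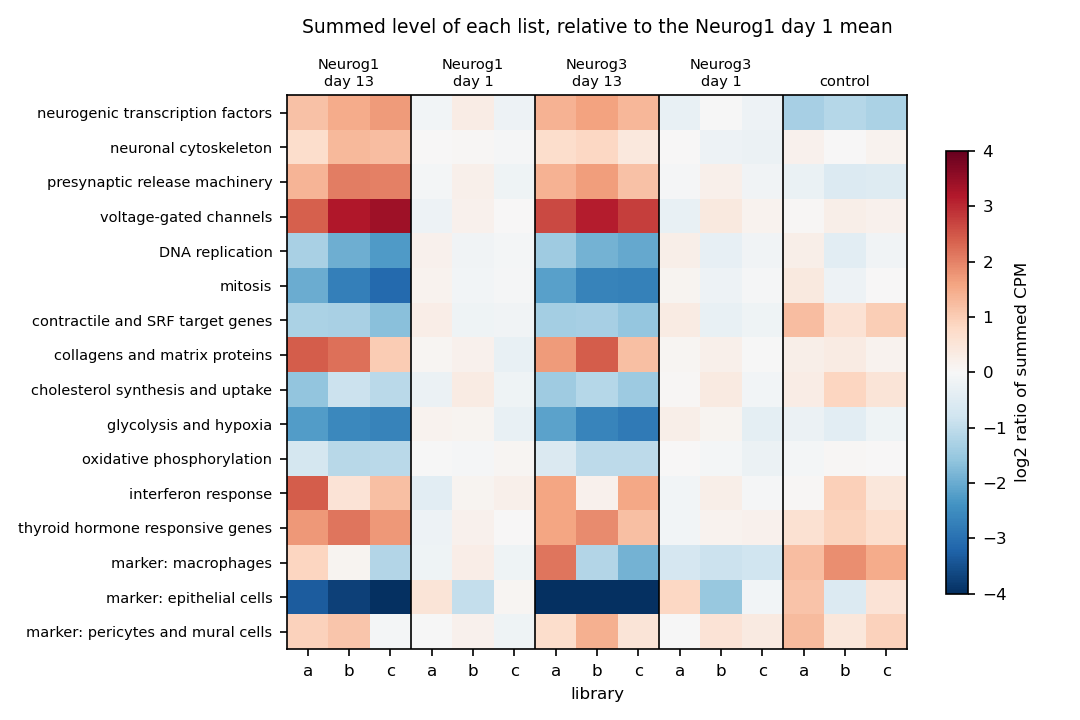
Log2 ratio of each list's summed CPM to its mean in the 3 Neurog1 day-1 libraries, by library (a, b, c) for Neurog1 day 13, Neurog1 day 1, Neurog3 day 13, Neurog3 day 1 and control; the colour scale ends at -4 and 4. Day-13 columns of both factors are red in the rows of neurogenic transcription factors, neuronal cytoskeleton, presynaptic genes, channels and collagens and blue in the cell cycle, glycolysis and epithelial rows, and the interferon row is deepest in library a of Neurog1 day 13.

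Markers of other cell types were checked, and their part in the results was not tested. Of 13 tested macrophage genes 1 rose, C1qc, in which the groups overlapped (8.13, 5.57 and 0.506 CPM at day 13 and 0.46, 0.706 and 0.2 CPM at day 1; log2 fold change 3.34 ± 1.17, adjusted p = 0.0233). Its call was lost without library a of day 13 (2.69, adjusted p = 0.0753), without library a of day 1 (3.33, adjusted p = 0.0638) and without library c of day 1 (2.99, adjusted p = 0.0814), and 5 macrophage genes were called higher with no filter on low counts. Of 14 epithelial markers 7 were tested, 1 rose and 4 fell, with summed levels of 6.79, 5.1 and 2.58 CPM at day 13 and 97.9, 35.4 and 71.3 CPM at day 1. Krt8, a keratin of simple epithelia, had 3 counts over the day-13 libraries and 1293 over the day-1 libraries, 520.5-fold (95% counting interval 178 to 2527) lower. Its partner Krt18 had 2 and 1193 counts, 720.3-fold (95% counting interval 199 to 5955) lower, and both have near-identical pseudogenes that could take part of their reads. Epcam and Cdh1 had 2 and 4 counts at day 13 and 9 and 1 at day 1. Of 8 tested endothelial genes 3 rose and 3 fell (32.6, 37.2 and 17.6 CPM summed at day 13 and 57.6, 36.7 and 42.7 CPM at day 1), and the defining Pecam1 had 15 and 19 counts. Of 12 tested genes of astrocytes and oligodendrocytes 6 rose and 3 fell (363, 423 and 288 CPM at day 13 and 368, 291 and 269.6 CPM at day 1). Slc1a3, a glutamate transporter of astrocytes, had 40.9, 46.5 and 40.5 CPM at day 13 and 4.93, 3.06 and 3.06 CPM at day 1 (log2 fold change 3.53 ± 0.31, adjusted p = 4.81e-07), while Gfap had 25 and 9 counts. Of 11 tested crest and Schwann genes 3 rose and 1 fell (40.7, 64.6 and 32 CPM at day 13 and 19.1, 13 and 15.5 CPM at day 1). Ngfr, the p75 neurotrophin receptor, had 12, 36.5 and 14 CPM at day 13 and 0.132, 0.53 and 0.866 CPM at day 1 (log2 fold change 5.34 ± 0.90, adjusted p = 0.000151), and Sox10 was not called, at 47 and 9 counts. Pericyte genes were at 5 higher and 2 lower of 8 (229, 260.2 and 115 CPM at day 13 and 119.8, 136 and 106 CPM at day 1), with Pdgfrb at 139, 120.4 and 58.4 CPM at day 13 and 38.9, 48.1 and 32.7 CPM at day 1 (log2 fold change 1.41 ± 0.32, adjusted p = 0.00148). Rgs5, another pericyte marker of that list, fell (log2 fold change -4.03, adjusted p = 0.000488). Adipocyte genes were at 3 higher and 1 lower of 8 (192, 143 and 132 CPM at day 13 and 74.2, 48.3 and 58.8 CPM at day 1), with Lpl, lipoprotein lipase, at 122, 90.5 and 90.1 CPM at day 13 and 29.2, 14.2 and 20.4 CPM at day 1 (log2 fold change 2.24 ± 0.30, adjusted p = 2.09e-05). Cartilage and bone genes were at 5 higher and 1 lower of 10 (130.5, 83.2 and 56.7 CPM at day 13 and 45.7, 46.2 and 44 CPM at day 1), with Sox9 at 37.9, 42.6 and 23.2 CPM at day 13 and 13, 18.4 and 15.7 CPM at day 1 (log2 fold change 1.14 ± 0.33, adjusted p = 0.00734). Slc1a3, Ngfr, Lpl and Sox9 are risen members, and their lists also held fallen ones. Log2 fold changes of tested members ran from -2.80 to 6.49 in astrocyte and oligodendrocyte genes and from -4.05 to 5.34 in crest and Schwann genes. The ranges were -2.44 to 5.25 in adipocyte genes and -1.87 to 5.71 in cartilage and bone genes.

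By fitted value, the 12 highest fold changes among called genes with at least 5 CPM and no overlap were all in genes with 0 counts in every day-1 library. That order depends on the prior count added to 0. Measured against 3 counts, these folds are lower bounds, and except in Stmn3 the bounds lie under the ratios of Snap25 and Lsamp given above. The genes were Stmn3, Slitrk1, Eef1a2, Hrk, Phf24, Ostn, Prelp, Olfml1, Scg3, Chga, Tmem145 and Actl6b. Slitrk1, a synaptic adhesion protein, had 58.1, 64.1 and 53.7 CPM at day 13, at least 922-fold higher. Eef1a2, the elongation factor that replaces Eef1a1 in mature neurons and muscle, had 34.3, 67.2 and 44.4 CPM, at least 771-fold higher. Actl6b (BAF53b), the neuronal subunit of the BAF chromatin remodeller, had 8.86, 18.1 and 20.4 CPM, at least 252-fold higher. Ostn, Prelp and Olfml1 in this group encode secreted proteins, and Ostn was highest in library a (48.3, 13 and 7.54 CPM). In all, 95 genes had 0 counts in every day-1 library and at least 10 in each day-13 library, and 15 genes had 0 counts in every day-13 library and at least 10 in each day-1 library. The 12 lowest by fitted value were Wincr1, Tff3, Mmp10, Psg22, Krt18, Mcpt8, Krt8, Dynap, Tm4sf4, F2rl1, Nipal1 and Hao1. Wincr1, a long noncoding RNA, Tff3, a trefoil peptide, and Mmp10 had 0 counts in every day-13 library, at least 159-fold, 140.5-fold and 125-fold lower. These bounds lie under the ratios of Krt18 and Krt8, so the order of the 12 depends on the prior count too. Mcpt8, of the mast cell protease family, had 0.224, 0 and 0.101 CPM at day 13 and 47.4, 69.9 and 43.5 CPM at day 1 (log2 fold change -8.89 ± 0.61, adjusted p = 8.25e-08), against 4.26 CPM in the controls. Psg22 belongs to a family of near-identical copies, and its value is uncertain.

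The same change was measured in the Neurog3 libraries, where 4887 genes rose (29.0%) and 4523 fell (26.8%). The test of the difference, the Neurog1 change minus the Neurog3 change, called 0 of 16872 genes by edgeR, with 471 genes (2.79%) at an unadjusted p under 0.05; DESeq2 called 2. Libraries with the same letter deviated together across the factors within a day (correlations of deviations 0.29 to 0.56), and with that letter as a replicate block within day, 48 genes were called, 27 with the higher change under Neurog1 and 21 with the lower. By the rule for naming genes of this comparison, Emilin2, a matrix protein, had a log2 fold change of -1.07 with Neurog1 and -3.44 with Neurog3 (blocked difference 2.37 ± 0.35, adjusted p = 0.0258). Steap3, a ferrireductase, had -0.14 and -2.60 (blocked difference 2.40 ± 0.31, adjusted p = 0.0177). Cers4, a ceramide synthase, had 0.88 and -0.66 (blocked difference 1.49 ± 0.27, adjusted p = 0.0447), and Rgs10, a regulator of G protein signalling, -0.39 and 1.05 (blocked difference -1.45 ± 0.26, adjusted p = 0.0447). Col15a1, with 4.12 and 1.79, was not among the 48, and Fam107a, with -2.51 and -5.82, was. Other genes of the 48, chosen after their values were seen, were the axonal adhesion protein Cntn2 (5.09 with Neurog1, 3.30 with Neurog3; blocked difference 1.80 ± 0.29, adjusted p = 0.0353) and the peptide genes Cck (-0.55 and 1.73; -2.32 ± 0.28, adjusted p = 0.0112) and Sct (0.02 and 1.88; -2.06 ± 0.22, adjusted p = 0.00917). With Neurog1, Cck was not called, but it was called lower without library c of day 13 (-1.95, adjusted p = 0.0275), and its value was -0.16 without library a or without library b of day 13. The list counts with Neurog3 were 30 higher and 2 lower of the presynaptic genes, 36 higher and 3 lower of the channels, 0 higher and 36 lower of the mitosis genes, 30 higher and 2 lower of the matrix genes and 22 higher and 2 lower of the interferon genes. With Neurog1 these had been 33 and 2, 39 and 1, 0 and 36, 30 and 2, and 24 and 0. Counts differed more in some other lists, chosen after their values were seen. With Neurog3, 24 cytoskeleton genes were higher and 1 lower, and 10 skeletal muscle genes were higher and 3 lower. Oxidative phosphorylation genes were at 0 higher and 21 lower, and macrophage markers at 6 and 0. With Neurog1 these lists had 29 and 0, 15 and 2, 1 and 29, and 1 and 0. The difference in counts was not tested.

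**Figure D5:**
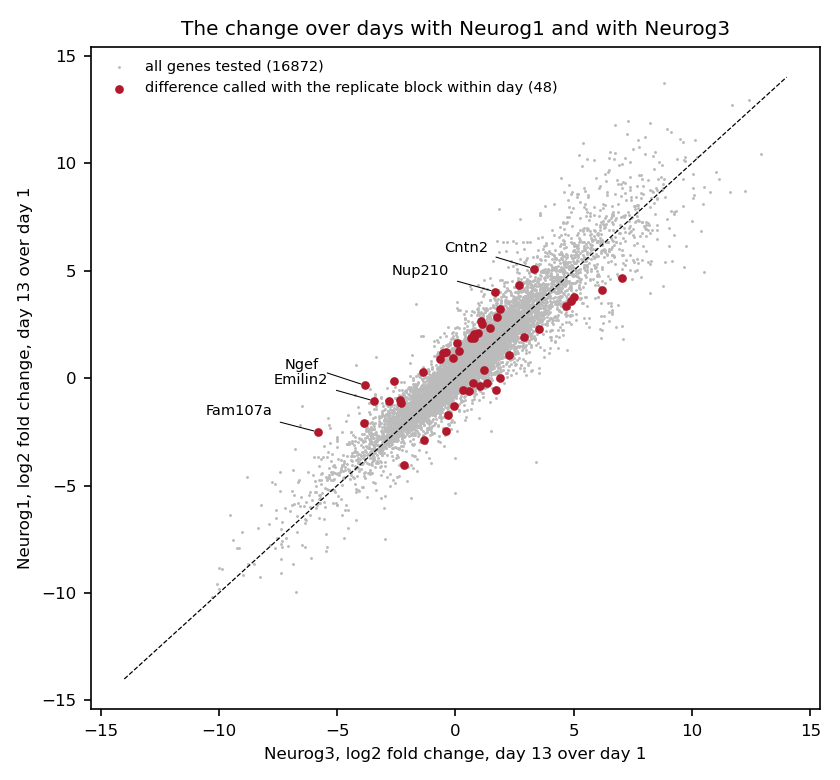
Log2 fold change, day 13 over day 1, with Neurog1 (vertical axis) against Neurog3 (horizontal axis) for the 16872 genes tested (grey); red points are the 48 genes whose difference was called with the replicate block within day, and the dashed line marks equal change. Grey points lie along the line in both directions, and the 48 lie to either side of it.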

How the data were processed

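PolyA RNA was sequenced from mouse embryonic fibroblast cultures. The authors deposited raw gene counts, made with CASAVA, HISAT2 and featureCounts on mm10, per the submitters' processing notes. The sources used here give no version, strand setting or annotation release. Genes were named by GENCODE M21 (42548 of 43432 IDs); the 884 unnamed IDs held 0.12% of counts, and 107 of them were tested. Without stated strand, overlapping and antisense genes cannot be separated.

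The counts of all 15 libraries were fitted with 1 mean per group by edgeR 4.0.16 (TMM, filterByExpr, quasi-likelihood F test, Benjamini-Hochberg adjusted p under 0.05, R 4.3.3, limma 3.58.1). The fit was tested on simulated data. Fitted log2 fold changes use a prior count of 0.125. For a gene with 0 counts in a group, the bound uses 3 counts over that group, and for 1 to 3 counts the ratio of summed CPM has an exact 95% interval, both for counting error only. Alternatives were RLE factors, library totals, other filters, DESeq2 1.42.0, the Neurog1 libraries alone, replicate blocks and leaving out each library. Same-letter Neurog1 and Neurog3 libraries deviated together within a day (correlations 0.560, 0.476 and 0.560 at day 13, 0.408, 0.497 and 0.286 at day 1), while nothing in the labels says what a letter marks.

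The comparison, its members and the gene lists were chosen with earlier results of these data known. Named genes were a set of anchors, the 12 highest and 12 lowest fold changes (called, at least 5 CPM in the higher group, no overlap, no predicted models), per list the 3 called members with the highest CPM, the 2 largest fold changes each way and the uncalled member with the highest CPM, and 6 genes for the difference from Neurog3. Some genes that this rule names are not reported here. Named outside this rule, after their values were seen, were Bst2, Cck, Cntn2, Ldb3, Sema6d, Sox2, Sox10 and the untested marker genes. Promoter windows are from RefSeq (GRCm38.p6).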

Additional observations from a re-analysis of the deposited data

How the results depend on the processing

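The counts of genes called higher and lower were 5264 and 4482 with RLE factors, 6438 and 3411 with library totals, 5217 and 4476 with no filter on low counts, 4908 and 4523 at 1 CPM or more in at least 3 libraries, 5501 and 4598 with DESeq2, and 4855 and 4282 with the Neurog1 libraries alone. Leaving out 1 library gave 4431 to 5058 higher and 3895 to 4504 lower. Letters did not pair day 13 with day 1 (correlations of deviations 0.0149, 0.0669 and 0.0118). As a replicate block across days they gave 5434 higher and 4890 lower, and as a replicate block within day 6267 and 5739. The difference from Neurog3, with 0 genes called, had 2 with DESeq2 and 48 with the replicate block within day; the cause was not tested. The counts of the 13 lists the text leads with stayed within 1.5 times under each alternative. Smaller lists moved: with library totals 8 in place of 4 retinoid genes and 9 in place of 4 amino acid stress genes were called higher, and 3 in place of 7 lysosome genes lower. Among named genes with a sign change on the log2 scale, B2m ranged between -0.10 and 0.93 when 1 library was left out. Ccn2 ranged between -0.26 and 1.16 when 1 library was left out. Neurog1 ranged between -0.074 and 0.83 when 1 library was left out. Sct ranged between -0.30 and 0.39 when 1 library was left out, and was -0.0216 with replicate block, and was -0.0953 with replicate block within day. Steap3 ranged between -0.47 and 0.17 when 1 library was left out, and was 0.12 with library totals. None of these was called in either direction. Genes with under 10 counts in a group are limited by depth. Intervals are given where a group had 1 to 3 counts, and they leave out the spread between libraries.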

Other observations

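Some gene families outside the fixed lists moved widely, and they were chosen after their values were seen. Of 31 tested imprinted genes 23 rose and 3 fell (median log2 fold change 1.49). Igf2, a fetal growth factor, had 4922, 4724 and 1868 CPM at day 13 and 928, 895 and 645 CPM at day 1 (log2 fold change 2.22 ± 0.38, adjusted p = 0.000163). Meg3, a noncoding RNA of the Dlk1 locus, had 2112, 2573 and 3787 CPM at day 13 and 405, 470.4 and 437 CPM at day 1, and Peg3, a zinc finger gene expressed from the paternal allele, had 1092, 1396 and 1265 CPM at day 13 and 540.2, 526 and 355 CPM at day 1. H19, a noncoding RNA beside Igf2, had 2798, 2673 and 1364 CPM at day 13 and 904, 661 and 869 CPM at day 1 (log2 fold change 1.49 ± 0.36, adjusted p = 0.00227), under its control mean of 3919.6 CPM. Of 36 tested Hox genes, which set position along the body axis, 24 rose and 1 fell (median 1.47), among them Hoxa5 with 26.4, 52.9 and 67.1 CPM at day 13 and 6.9, 8.18 and 11.7 CPM at day 1 (log2 fold change 2.45 ± 0.33, adjusted p = 2.1e-05). Of 52 tested clustered protocadherins, cell surface proteins of neurons, 44 rose and none fell (median 2.84). Pcdhb22 had 37.1, 32.6 and 35 CPM at day 13 and 6.77, 11.1 and 5.33 CPM at day 1 (log2 fold change 2.17 ± 0.37, adjusted p = 0.000158). Genes of the alpha and gamma clusters share their last exons, so reads there cannot be given to 1 member.

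Genes of protein synthesis and turnover were lower. Of 85 tested cytosolic ribosomal protein genes 81 fell and none rose (median -1.22), as did 60 of 73 mitochondrial ones (median -0.92). Rpl3 had 931, 589 and 569 CPM at day 13 and 2102, 1714 and 2049.9 CPM at day 1 (log2 fold change -1.49 ± 0.25, adjusted p = 0.000118). The share of counts in ribosomal protein genes was 4.02% ± 1.02 at day 13 and 7.63% ± 1.28 at day 1 (SD, n = 3; exact permutation test, two-sided, p = 0.1, the smallest that 3 against 3 can give). Processed pseudogenes of ribosomal protein genes could take part of their reads. Of 38 proteasome genes 33 fell (median -1.27), and 2 rose. These were Psmb8 and Psmb9, subunits of the interferon-induced immunoproteasome, with Psmb8 at 13, 3.61 and 3.74 CPM at day 13 and 0.132, 0.53 and 0.466 CPM at day 1 (log2 fold change 4.14 ± 0.79, adjusted p = 0.000412), highest in library a like the interferon list. Of 18 nuclear pore genes 15 fell, and Nup210, a membrane pore protein used in muscle and neural differentiation, rose, with 9.82, 24.9 and 24.3 CPM at day 13 and 0.723, 1.94 and 0.933 CPM at day 1 (log2 fold change 4.02 ± 0.58, adjusted p = 3.64e-05). Nup210 was also among the 48 genes whose difference from the Neurog3 change was called with the replicate block within day (blocked difference 2.42 ± 0.33, adjusted p = 0.0206). Without that block its difference was not called.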
